A study of Homo sapiens with 2 samples.

Results

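The genes described here encode the respiratory chain and the ATP synthase, in A375 cells, an established human melanoma line. They were chosen by symbol, taking every gene whose symbol starts with MT-ND, MT-CO, MT-ATP, MT-CYB, NDUFA, NDUFB, NDUFC, NDUFS, NDUFV, SDH, UQCR, COX4I, COX5, COX6, COX7, COX8A or ATP5. Of 117 such symbols among the 33538 genes counted, 106 were measured, meaning at least 5 UMIs per 1000000 (CPM) in a library, out of 9961 measured genes in all. A UMI is a molecular tag that marks 1 captured RNA molecule. Of the measured genes, 91 encode structural subunits, 13 of them in mitochondrial DNA and 78 in the nucleus. The other 15 are assembly factors, an inhibitor, factors and paralogs, and they stay outside every sum of subunits.

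The study profiled 2 samples by droplet sequencing of RNA 3′ ends. The parental sample was untreated A375 cells. The CTL-tolerant persister sample was the A375 cells left alive after 15 days together with cytotoxic T lymphocytes (CTLs) specific for the tumour antigen NY-ESO-1, with interleukin 2 at 7.5 ng/mL and fresh CTLs every 3 days. Whether the parental cells received interleukin 2, or were kept for the same time, is not given in the labels. Each group is 1 library of 1 cell line, so no test between groups was possible and no difference below has a replicate check. Ratios are therefore described by size, with 1.5-fold as the threshold for calling a gene higher or lower, and each interval is an exact 95% interval that covers counting error only.

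After removal of barcodes under 500 genes, under 1000 UMIs or over 20% mitochondrially encoded UMIs, 10630 parental and 6767 persister cells remained, with 88110998 and 80401208 UMIs and medians of 7590 and 11165 UMIs per cell. Only 33 kept barcodes occurred in both libraries. Of 15 melanoma markers, 10 were at 5 CPM or more in each library. Those near 0 in both libraries included TYR with 0 UMIs, MLANA with 0 and 1 and PMEL with 9 and 11. SOX10, a neural crest factor kept in melanoma, was higher in the persister library, at 99.6 and 178 CPM, as were S100B, S100A1, MIA and CSPG4. MITF (13.8 and 6.92 CPM), GPNMB (32.3 and 10.9), PRAME (42.7 and 22.5) and CAV1 (400 and 33.1) were lower, as was VIM. The 20 T cell and cytotoxic markers summed to 4.27 CPM in the parental library, where 7 were at 0, and to 109 CPM in the persister library, where none was at 0. Barcodes with UMIs of at least 3 of these markers numbered 0 parental and 180 persister (2.66%). Across all measured genes the median persister to parental ratio was 0.901, a log2 shift of -0.15, against which the ratios below can be read.

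The respiratory chain is built from 2 genomes. Complex I (NADH dehydrogenase), complex III (cytochrome bc1), complex IV (cytochrome c oxidase) and complex V (ATP synthase) each combine nuclear encoded subunits with a few made inside the mitochondrion, whereas complex II (succinate dehydrogenase) is wholly nuclear encoded. Complexes I to IV pass electrons from NADH or succinate to oxygen and most of them pump protons, and complex V uses the proton gradient to make ATP. The mitochondrial genes are transcribed from both strands of a small circular DNA as long precursors that are cut apart, while the nuclear genes are transcribed singly, many of them under the control of the factors NRF1, GABP (an ETS factor) and YY1.

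Promoters of 5 nuclear subunit genes are shown, since these genes are among those that differed most between the libraries and they hold different motifs. They were picked after the values were seen, among the genes with an entry in RefSeq's promoter table. Windows without an NRF1 or ETS motif are not shown, such as those of NDUFA7 and NDUFB8 (higher) and ATP5MC1, ATP5PB and UQCRC2 (lower). The window of UQCRFS1 (lower), which holds an NRF1 motif, is not shown either. The 5 windows therefore do not stand for all genes that differed. NDUFA13 and COX6A1 were higher in the persister library, and SDHD, UQCR10 and ATP5ME were lower. Each window runs from 250 bases before to 50 bases after the RefSeq start, 5′ to 3′ on the gene's strand (GRCh38.p14), and capitals mark the NRF1 motif (GCGCA, any 1 base and GCGC, or GCGC, any 1 base and TGCGC) or the ETS motif (CCGGAAG) on either strand. The windows are chr19:19515975-19516274 on the plus strand for NDUFA13, chr12:120437863-120438162 plus for COX6A1, chr11:112086623-112086922 plus for SDHD, chr22:29767119-29767418 plus for UQCR10 and chr4:674227-674526 minus for ATP5ME.
NDUFA13: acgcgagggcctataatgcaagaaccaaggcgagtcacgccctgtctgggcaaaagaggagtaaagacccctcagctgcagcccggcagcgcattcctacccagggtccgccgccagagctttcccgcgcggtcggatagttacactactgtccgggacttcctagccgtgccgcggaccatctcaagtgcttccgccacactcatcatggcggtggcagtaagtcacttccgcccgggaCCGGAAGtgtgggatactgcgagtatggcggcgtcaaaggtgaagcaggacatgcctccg
COX6A1: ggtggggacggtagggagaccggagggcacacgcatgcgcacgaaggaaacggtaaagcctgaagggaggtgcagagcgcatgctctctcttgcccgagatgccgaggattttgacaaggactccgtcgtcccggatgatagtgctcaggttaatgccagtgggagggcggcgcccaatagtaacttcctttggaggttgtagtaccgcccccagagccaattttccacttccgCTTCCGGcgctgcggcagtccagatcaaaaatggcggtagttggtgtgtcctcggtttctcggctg
SDHD: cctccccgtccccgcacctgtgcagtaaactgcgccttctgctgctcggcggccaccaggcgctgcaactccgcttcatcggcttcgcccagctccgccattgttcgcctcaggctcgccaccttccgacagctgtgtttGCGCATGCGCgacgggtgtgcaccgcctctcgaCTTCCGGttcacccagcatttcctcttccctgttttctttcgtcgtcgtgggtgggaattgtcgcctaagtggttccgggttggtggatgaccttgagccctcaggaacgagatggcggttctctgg
UQCR10: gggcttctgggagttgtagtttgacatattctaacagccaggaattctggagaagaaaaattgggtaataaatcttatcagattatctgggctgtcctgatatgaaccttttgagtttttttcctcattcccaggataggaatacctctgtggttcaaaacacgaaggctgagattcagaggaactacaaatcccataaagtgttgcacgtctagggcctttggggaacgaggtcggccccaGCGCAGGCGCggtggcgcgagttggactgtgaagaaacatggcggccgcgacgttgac
ATP5ME: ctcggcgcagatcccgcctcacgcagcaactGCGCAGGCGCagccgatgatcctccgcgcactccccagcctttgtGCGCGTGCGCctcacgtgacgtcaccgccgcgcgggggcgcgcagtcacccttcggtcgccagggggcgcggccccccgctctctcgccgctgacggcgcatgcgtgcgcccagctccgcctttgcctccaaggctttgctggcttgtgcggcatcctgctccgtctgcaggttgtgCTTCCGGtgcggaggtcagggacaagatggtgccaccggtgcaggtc

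Promoter entries were matched by symbol for 65 of the 78 measured nuclear subunits. The NRF1 motif was found in 16 of these windows (24.6%), against 5.78% of all 35116 promoters in the table. The ETS motif was found in 20 (30.8%, against 10.3%) and the YY1 motif AAGATGGC in 11 (16.9%, against 2.89%). Motifs of the interferon response were also searched: TTCNNNGAA occurred in 6 windows (9.23%, against 7.66%) and GAAA repeated after any 2 bases in 0 (against 3.57%). The hypoxia motif ACGTG occurred in 17 (26.2%, against 21.4%). All motifs were searched on both strands, and a window could hold several. The background takes every entry of the table, of measured and unmeasured genes alike, whereas each subunit counts with 1 entry. A background of measured genes alone was not tested. Among the 4 nuclear subunits that were at least 1.5-fold higher, the NRF1 motif was in 0 and the ETS motif in 2 windows. Among the 9 that were at least 1.5-fold lower, 8 had an entry, with the NRF1 motif in 4 and the ETS motif in 2. The hypoxia motif was in 2 of the 4 higher and 5 of the 8 lower windows, and the YY1 motif in 1 and 1. TTCNNNGAA was in 0 and 1, and the GAAA motif in 0 and 0. No difference between the higher and lower windows was tested. The NDUFA5 window (chr7:123601602-123601901, minus strand) lies outside the gene's GENCODE bounds (123536997-123558255), so it may not be its main promoter. A match describes letters in the window and is not a measured binding site.

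**Figure D1:**
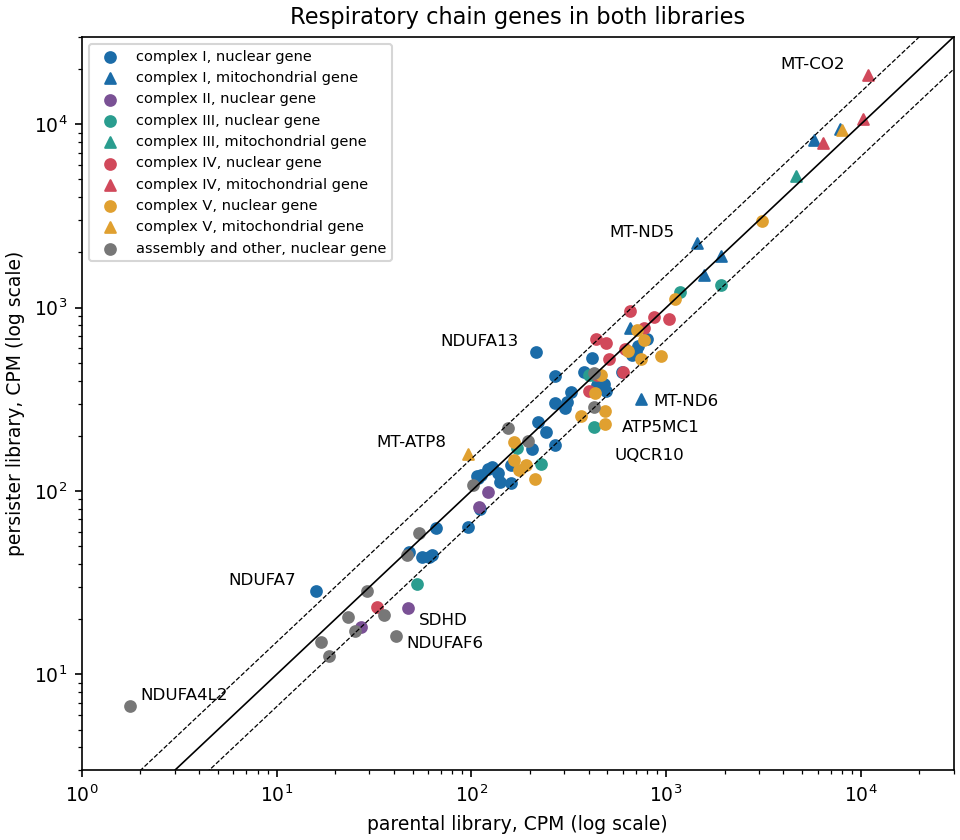
CPM of each of the 106 measured genes in the parental library (x axis, log scale) and the persister library (y axis, log scale), by complex and genome, with a solid line at equal levels and dashed lines at 1.5-fold. Mitochondrial genes (triangles) lie at the top right, most of them above the line, with MT-ND6 below it, and most nuclear genes lie between the dashed lines.

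Transcripts of the mitochondrial genome made up a larger share of persister RNA, and those of the nuclear subunits a slightly smaller one. The 13 mitochondrial subunits summed to 60129 CPM in the parental and 76124 CPM in the persister library, 6.01% and 7.61% of all UMIs, a ratio of 1.27 (counting interval 1.26 to 1.27). The 78 nuclear subunits summed to 33077 and 30289 CPM, a ratio of 0.916 (0.914 to 0.917). For every UMI of a nuclear subunit there were thus 1.82 mitochondrial UMIs in the parental and 2.51 in the persister library. Barcodes over the 20% cap, which were left out, made up 0.0376% of the parental and 0.661% of the persister barcodes that passed the other filters, and with them the ratio was 1.273. The nuclear sum depends on the scaling, since its ratio was 0.982 after TMM scaling and 1.02 when all genes were scaled to a median ratio of 1.

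Of the 106 measured genes, 8 (7.55%) were at least 1.5-fold higher in the persister library, against 17.5% of all measured genes, and 12 (11.3%) were at least 1.5-fold lower, against 25.3%. At 2-fold, 2 were higher and 4 lower, against backgrounds of 10.3% and 10.6%. Both counts were thus smaller shares than among measured genes at large. The higher ones at either fold include NDUFA4L2, which reached 5 CPM only in the persister library. By genome, 3 of 13 mitochondrial subunits were 1.5-fold higher and 1 lower, with a median ratio of 1.18. Of the 78 nuclear subunits 4 were higher and 9 lower, with a median ratio of 0.865, near the 0.901 of all measured genes. Among nuclear genes at a mean of 100 CPM or more, a closer match in level, 14.3% of 1517 were higher and 23.2% lower, with a median ratio of 0.876, and 65 of the subunits were among them, 3 higher and 6 lower, with a median of 0.905.

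**Figure D2:**
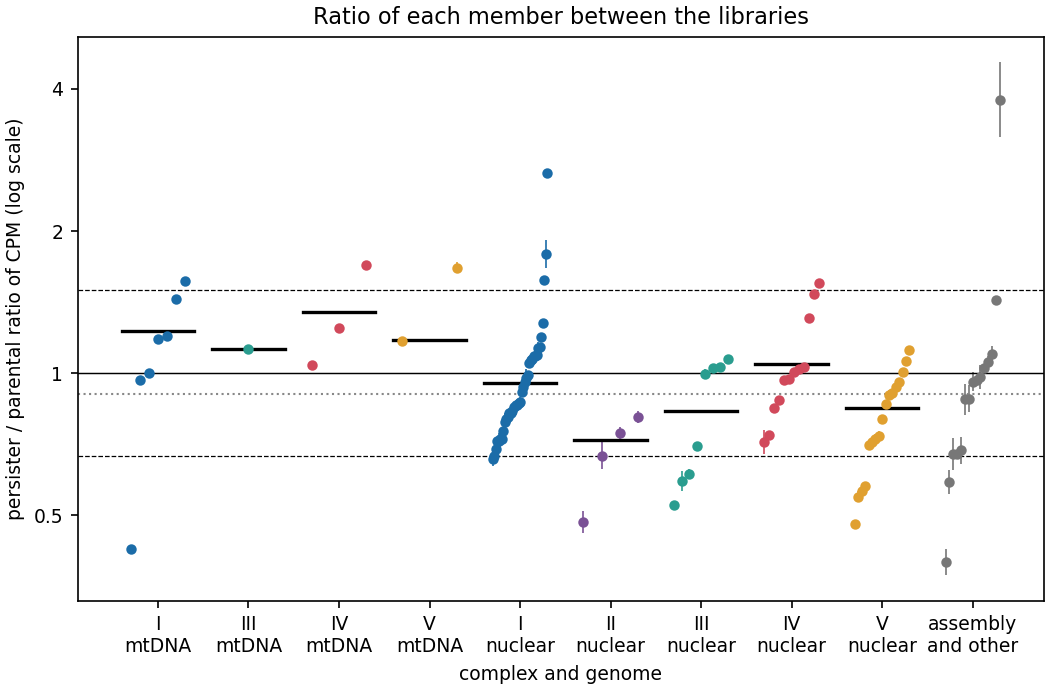
Persister to parental ratio of CPM (log scale) for each measured gene, grouped by complex and genome, with counting intervals as thin lines, bars at the ratio of each group's summed CPM, dashed lines at 1.5-fold and a dotted line at the median of all measured genes (0.901). All 4 complex II genes lie below 1, and complexes III and V each hold a set of low genes beside others near 1.

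The 13 mitochondrial genes did not differ by one common factor. MT-CO2, the cytochrome c oxidase subunit that takes electrons from cytochrome c, was at 10906 CPM in the parental and 18479.6 CPM in the persister library (ratio 1.69). Its share of the 13 genes' UMIs was 18.1% in the parental and 24.3% in the persister library. MT-ND5, a proton pumping subunit of complex I, was at 1436 and 2254 CPM (1.57), and the short MT-ATP8, an ATP synthase subunit whose frame overlaps MT-ATP6 on the same strand, was at 95.7 and 160.1 CPM (1.67). These 3 were the mitochondrial genes past 1.5-fold upwards. Without MT-CO2, the ratio of the summed mitochondrial subunits was 1.17.

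MT-ND4, also a proton pumping subunit, came just under the threshold at 5738 and 8248 CPM (1.44). The other cytochrome c oxidase genes were MT-CO1, the catalytic subunit, at 6369 and 7917 CPM (1.24) and MT-CO3 at 10224 and 10618 CPM (1.04). MT-ND3 was at 7857 and 9407 CPM (1.2), MT-ND4L at 655 and 773 CPM (1.18), MT-ATP6, the proton channel of ATP synthase, at 7994 and 9333 CPM (1.17) and MT-CYB, the heme subunit of complex III, at 4634 and 5201 CPM (1.12). All of these were modestly higher in the persister library. The 2 genes that lie first along the DNA were nearly equal between libraries: MT-ND1 at 1559 and 1505 CPM (0.965) and MT-ND2 at 1915 and 1911 CPM (0.998), both of which exceed 1 after TMM scaling.

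MT-ND6 was far lower in the persister library, and the only one of the 13 with a ratio below 1 under all 4 scalings. It is a membrane subunit of complex I and the one protein gene read from the light strand template, annotated on the minus strand at chrM:14149-14673, while the other 12 are on the plus strand. It stood at 745 CPM in the parental and 316 CPM in the persister library, 2.36-fold lower (ratio 0.425, 0.418 to 0.431), and its share of the 13 genes' UMIs was 1.24% and 0.416%. To set cells at equal depth, cells were randomly thinned to 5000 UMIs, and the 1536 parental and 825 persister cells below that depth were left out of every thinned value. The median thinned cell had 4 MT-ND6 UMIs in the parental and 1 in the persister library. Of thinned cells 95.4% and 71.7% had any, and of all cells 97.5% and 85.1%. Its neighbour MT-ND5, which ends at the base before it on the other strand, was higher. Whether the counting used read strand was not stated in the sources used, and reads of both strands can be told apart only if it did.

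Complex I had the widest spread among nuclear subunits. Its 37 nuclear subunits summed to 9996 and 9520.3 CPM, a ratio of 0.952 that became 1.02 after TMM scaling, with 3 genes 1.5-fold higher and 1 lower. Among all measured genes 17.5% were 1.5-fold higher and 25.3% lower. NDUFA13, a membrane arm subunit also known as GRIM-19 for its part in interferon and retinoic acid induced cell death, was at 215 CPM in the parental and 571 CPM in the persister library, 2.66-fold higher (2.61 to 2.7). After thinning, an NDUFA13 UMI was present in 65.3% of cells in the parental and 93.2% in the persister library (77.2% and 94.7% of all cells unthinned). The gene lies at chr19:19515736-19529054 (GRCh38, GENCODE 29), where it overlaps YJEFN3 on the same strand, which stood at 15.1 CPM in both libraries. NDUFA13 was the nuclear subunit with the largest ratio, and only the paralog NDUFA4L2, described below, was higher among all 106.

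NDUFB8, a membrane arm subunit often used as a marker of assembled complex I, was at 269 and 423 CPM (1.57). NDUFA7, a peripheral arm subunit, was at 15.9 and 28.4 CPM (1.79), the lowest level of the nuclear complex I subunits. It overlaps the far more abundant ribosomal protein gene RPS28 on the opposite strand (3870 and 2974 CPM, the lower value in the persister library). In the other direction NDUFA5, of the peripheral arm, was at 96.5 and 63.6 CPM (0.658), and NDUFA2, at 267 and 179 CPM, fell just short of the threshold (0.668). The most abundant nuclear complex I transcript, NDUFB2, was at 799 and 677 CPM (0.847). Among the core subunits, NDUFV1, which binds NADH, was at 110.4 and 80.2 CPM (0.726), and NDUFS1, which carries iron-sulfur clusters, was at 47.6 and 46.5 CPM (0.976). Over all 37, 13 ratios were above 1 and 24 below. This was near the background, since 63.8% of nuclear genes at a mean of 100 CPM or more had a ratio below 1.

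Complex II, which oxidises succinate and so ties the chain to the TCA cycle, was lower in all 4 subunits. Of nuclear genes at a mean of 100 CPM or more, 63.8% had a ratio below 1. The complex II sum was 306 and 221 CPM, a ratio of 0.722 (0.709 to 0.736). SDHD, 1 of the 2 membrane anchors, was at 47.4 and 22.9 CPM (0.483), the only one past 1.5-fold (25.3% of all measured genes were). It overlaps TIMM8B on the opposite strand (244 and 188 CPM). SDHA, the flavoprotein, was at 27.2 and 18.2 CPM (0.668, just short of the threshold), the other anchor SDHC at 109 and 81.4 CPM (0.746) and the iron-sulfur subunit SDHB at 122 and 98.3 CPM (0.806). All 4 stayed below 1 with the median-of-all-genes scaling, under which the complex II sum had a ratio of 0.801. Levels of different genes are counts of 3′ ends and are not set against each other by gene length.

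Complex III fell into lower and level genes. UQCR10, a small membrane subunit, was at 424 and 223 CPM (0.526), the core subunit UQCRC2 at 52.9 and 31.3 CPM (0.591) and UQCRFS1, the Rieske iron-sulfur protein that passes electrons to cytochrome c1, at 228 and 139.8 CPM (0.612). UQCRC2 was nearer to level in the deepest cells, with a ratio of 0.927 in those of 20000 UMIs or more. These 3 of 8 were past 1.5-fold, where 25.3% of all measured genes were 1.5-fold lower. UQCRH, the hinge protein and the most abundant of the 8, was at 1904 and 1336 CPM (0.702). UQCRHL, a near-identical copy of UQCRH with 364 and 136 UMIs, was below 5 CPM, and how reads were shared between the copies was not stated. The other 4 were within 1.07-fold of equality, among them the core subunit UQCRC1 at 172 and 171 CPM (0.996) and UQCRB, with the largest ratio, at 402 and 431 CPM (1.07). The nuclear sum was 4784 and 3979 CPM (ratio 0.832).

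Complex IV had a nuclear sum of 6848 and 7173 CPM, a ratio of 1.05, and was the only complex with a nuclear ratio above 1 in CPM, whereas with TMM and with the median scaling complex I was above 1 too (1.02 and 1.06). COX6A1 was at 436 and 677 CPM (1.55) and was the 1 of 12 past 1.5-fold, against 17.5% of all measured genes 1.5-fold higher. COX8A at 649 and 953 CPM (1.47) and COX6C at 489.9 and 642 CPM (1.31) were the next highest. COX4I1, the regulatory subunit that binds ATP, was near equal at 870.5 and 889 CPM (1.02), as were COX7A2 at 769 and 774 CPM (1.01), COX7B at 507 and 522 CPM (1.03) and NDUFA4, first assigned to complex I and now counted with complex IV, at 614 and 593 CPM (0.966). The most abundant, COX7C, was at 1033 and 869.8 CPM (0.842), and COX6B1 was at 600.2 and 444 CPM (0.74). Thus 6 of 12 ratios lay above and 6 below 1.

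Several cytochrome c oxidase subunits have a ubiquitous isoform and a tissue-restricted one. The restricted isoforms COX4I2, COX6A2 and COX7A1, known from lung, heart and skeletal muscle, had 0 UMIs in both libraries, where 3 UMIs would be 0.0340 and 0.0373 CPM. COX6B2, a testis isoform, had 14 and 67 UMIs (0.159 and 0.833 CPM), below the 5 CPM threshold in both. COX7B2, also of testis, was measured, at 32.7 and 23.4 CPM (0.716), with the lowest ratio in complex IV. After thinning, a COX7B2 UMI was present in 14.4% of cells in the parental and 10.5% in the persister library (21.7% and 21.4% unthinned), against 5.0% of the 180 barcodes with T cell markers, which were not thinned and had a median of 3821 UMIs. COX7A2L, which helps join complexes III and IV into supercomplexes and stays outside the sums, was at 103 and 108 CPM (1.06).

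Complex V held 4 of the 9 lower nuclear subunits, and 14 of its 17 nuclear ratios were below 1. Of all measured genes 25.3% were 1.5-fold lower. Of nuclear genes at a mean of 100 CPM or more, 63.8% had a ratio below 1. ATP5MC1 and ATP5MC3 are 2 of the 3 genes that encode the same mature c subunit of the rotating ring. ATP5MC1, at chr17:48892765-48895871, was at 484 CPM in the parental and 232 CPM in the persister library, 2.09-fold lower (ratio 0.479, 0.471 to 0.488), and 90.5% of thinned parental and 64.6% of thinned persister cells had a UMI of it (93.7% and 81.8% unthinned). ATP5MC3 was at 487 and 274 CPM (0.564), while ATP5MC2, which codes for the same mature protein, was at 638 and 577 CPM (0.905). The parental order of the 3 was ATP5MC2 above the other 2, which were within a few CPM of each other, and the gap to ATP5MC2 was wider in the persister library.

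ATP5PB, subunit b of the peripheral stalk that holds the catalytic head still, was at 212 and 116 CPM (0.547). It overlaps WDR77 on the opposite strand (77.9 and 24.6 CPM). ATP5ME, subunit e at the interface where ATP synthases dimerise, was at 940.3 and 543 CPM (0.577), and the gene opposite it, MYL5, was at 12.5 and 28.8 CPM. The catalytic head was lower too without passing 1.5-fold, with subunit alpha ATP5F1A at 190.1 and 138 CPM (0.725), subunit beta ATP5F1B at 365 and 257 CPM (0.704) and subunit gamma ATP5F1C at 176 and 129.8 CPM (0.736). ATP5F1E, subunit epsilon and the most abundant nuclear gene of the whole set, was near level at 3101 and 2968 CPM (0.957), and ATP5PD, of the peripheral stalk, had the largest ratio at 166 and 185 CPM (1.12). The nuclear sum was 11143 and 9396 CPM (ratio 0.843). ATP5IF1, the inhibitor that stops ATP synthase from running backwards, was level at 428 and 438 CPM (1.03), as was the factor ATP5S at 29.1 and 28.5 CPM (0.981).

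The 2 genomes differed within each mixed complex. Mitochondrial UMIs per nuclear UMI were 1.99 in the parental and 2.56 in the persister library for complex I, and 0.969 and 1.31 for complex III. They were 4.02 and 5.16 for complex IV and 0.726 and 1.01 for complex V. All 4 mixed complexes thus had more mitochondrial transcripts per nuclear transcript in the persister library, by 1.29-fold in complexes I and IV, 1.35-fold in complex III and 1.39-fold in complex V. These ratios within a library do not depend on the scaling. The mitochondrial sums behind them were 19907 and 24414 CPM in complex I (ratio 1.23), 27499 and 37014 CPM in complex IV (1.35) and 8089.7 and 9493.6 CPM in complex V (1.17). The complex IV value rests largely on MT-CO2 (1.69). MT-CO1 had a ratio of 1.24, and MT-CO3, at 1.04, did not exceed the 1.05 of the nuclear sum.

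NDUFA4L2, a paralog of NDUFA4 known as a hypoxia-induced gene that lowers complex I activity, had the largest ratio of the 106 at a very low level. This rank depends on the 5 CPM minimum, which NDUFA4L2 reached only in the persister library. COX6B2, with a ratio of 5.24 from 14 and 67 UMIs, did not reach it. NDUFA4L2 had 156 UMIs in the parental and 539 in the persister library, 1.77 and 6.7 CPM (ratio 3.79, 3.16 to 4.55). The ratio ranged from 2.82 in cells thinned to 5000 UMIs to 9.42 in cells of 20000 UMIs or more (188 parental and 637 persister cells). At least 1 UMI was seen in 1.44% of parental and 7.48% of persister cells, and in 1.03% and 2.91% after thinning. Among the 180 barcodes with T cell markers, which were not thinned and had a median of 3821 UMIs, the share was 2.22%. Free RNA cannot be told apart from expression in single cells here. The persister level without those barcodes was 6.72 CPM. The gene lies at chr12:57234903-57240715 on the minus strand and overlaps SHMT2, the mitochondrial serine hydroxymethyltransferase, on the opposite strand, which was at 66.6 and 161 CPM.

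Assembly factors that build complexes I and II are held apart by the AF in their symbols, and 11 were measured. NDUFAF6 had the lowest ratio of all 106 genes, at 40.9 and 16.3 CPM (0.398). It overlaps the cyclin gene CCNE2 on the opposite strand, which was at 38.0 and 9.61 CPM. NDUFAF8 was at 426 and 287 CPM (0.675), NDUFAF5, which modifies NDUFS7, at 25.3 and 17.4 CPM (0.685), NDUFAF7, a methyltransferase, at 17.0 and 14.9 CPM (0.879) and NDUFAF1, of the membrane arm assembly complex, at 23.4 and 20.6 CPM (0.883). NDUFAF2 was at 194 and 188 CPM (0.964). In the other direction NDUFAF3 was at 154 and 220.4 CPM (1.43) and its partner NDUFAF4 at 54.2 and 59.3 CPM (1.09). For complex II, SDHAF3 was at 35.7 and 21.0 CPM (0.587), SDHAF1, which helps insert iron-sulfur clusters into SDHB, at 18.6 and 12.5 CPM (0.674) and SDHAF2, which helps attach flavin to SDHA, at 46.9 and 45.0 CPM (0.959). NDUFAF6 and SDHAF3 were the 2 of 11 past 1.5-fold, and none was past it upwards. Of all measured genes 25.3% were 1.5-fold lower and 17.5% higher.

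The remaining 11 of the 117 symbols were below 5 CPM in both libraries. They were COX4I2, COX6A2 and COX7A1 at 0 UMIs, COX6B2 and UQCRHL as given above, and SDHAF4 with 165 and 226 UMIs. The copy ATP5MGL had 417 and 365 UMIs, the antisense RNAs NDUFB2-AS1 188 and 105 and NDUFV2-AS1 40 and 45, and the read-through genes ATP5MF-PTCD1 1 and 5 and NDUFC2-KCTD14 0 and 1.

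Proliferating cells carried slightly smaller shares of respiratory chain RNA than the rest of their library. A cell was called MKI67-positive with at least 1 UMI of MKI67, a gene expressed in cycling cells, which held for 8286 of 10630 cells in the parental library (77.9%, 77.1 to 78.7) and 2938 of 6767 in the persister library (43.4%, 42.2 to 44.6). Positive cells were deeper, with medians of 8216.5 against 6014 UMIs in the parental and 13838.5 against 9815 in the persister library. The mitochondrial subunits summed to 59320 CPM in positive and 64236 CPM in negative parental cells (ratio 0.923), and to 71718 and 80921 CPM in persister cells (0.886). The nuclear subunits summed to 32914 and 33903 CPM (0.971) and to 29300.3 and 31366 CPM (0.934). No member was 1.5-fold higher or lower in positive cells of either library, against 1.49% and 1.14% of all measured genes in the parental and 6.16% and 3.49% in the persister library. The direction was widely shared, with 81 of 106 ratios below 1 in the parental and 84 in the persister library. The median log2 ratio of all measured genes was 0.00582 in the parental and 0.0101 in the persister library.

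The library difference was present in both states. In MKI67-positive cells the persister to parental ratio was 1.21 for the mitochondrial and 0.890 for the nuclear sum, with 9 of the 106 genes 1.5-fold higher (against 17.0% of measured genes) and 17 lower (against 24.0%). In MKI67-negative cells the ratios were 1.26 and 0.925, with 8 higher (against 17.6%) and 14 lower (against 26.9%). NDUFA13 was 2.55-fold higher in positive and 2.67-fold higher in negative cells, and ATP5MC1 had ratios of 0.460 and 0.511.

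MT-ND6 also parted from the other mitochondrial genes between the states. In the persister library it was at 374 CPM in MKI67-positive and 254 CPM in MKI67-negative cells, a ratio of 1.47, while the other 12 had ratios of 0.831 (MT-CO2) to 0.967 (MT-CO3). In the parental library it was at 735 and 799.6 CPM, a ratio of 0.919, within the 0.883 to 0.994 of the 13 genes. With states called in cells thinned to 5000 UMIs the ratios were 1.43 in the persister and 0.9996 in the parental library. Both persister states were thus below both parental states for MT-ND6, and the negative cells were the lowest of the 4.

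**Figure D3:**
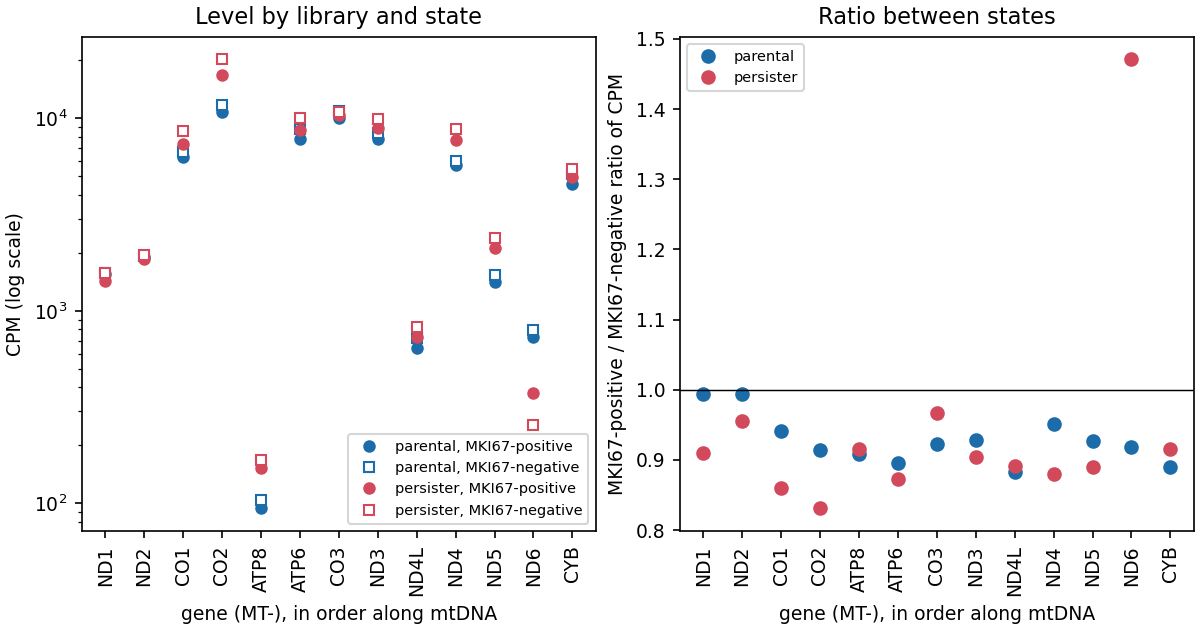
Left, CPM (log scale) of the 13 mitochondrial genes in MKI67-positive and MKI67-negative cells of each library, in order along the mitochondrial DNA; right, the positive to negative ratio of CPM in each library. MT-ND6 stands at 1.47 in the persister library, and all other points lie below 1.

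Single cells showed the same shift as the sums, with wide overlap. The mitochondrial subunits took a median of 5.92% of a parental cell's UMIs (5th to 95th percentile 3.77 to 8.75) and 7.57% of a persister cell's (2.11 to 11.5). Of persister cells 80.1% lay above the parental median and 28.2% above the parental 95th percentile. The nuclear subunits took medians of 3.25% (2.61 to 4.01) and 2.99% (2.20 to 3.78), and 72.2% of persister cells lay below the parental median. Across cells of a library, the mitochondrial share and the nuclear subunits' share of nuclear UMIs had a Spearman correlation of 0.31 in each library, given as a description since both are shares of the same sparse counts. A second, small set of cells had little mitochondrial RNA: 298 parental (2.80%) and 492 persister cells (7.27%) had under 3% mitochondrial UMIs, a level chosen after the distribution was seen, with medians of 2614.5 and 2053.5 UMIs. In them the nuclear subunits still summed to 30253 and 30082 CPM.

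**Figure D4:**
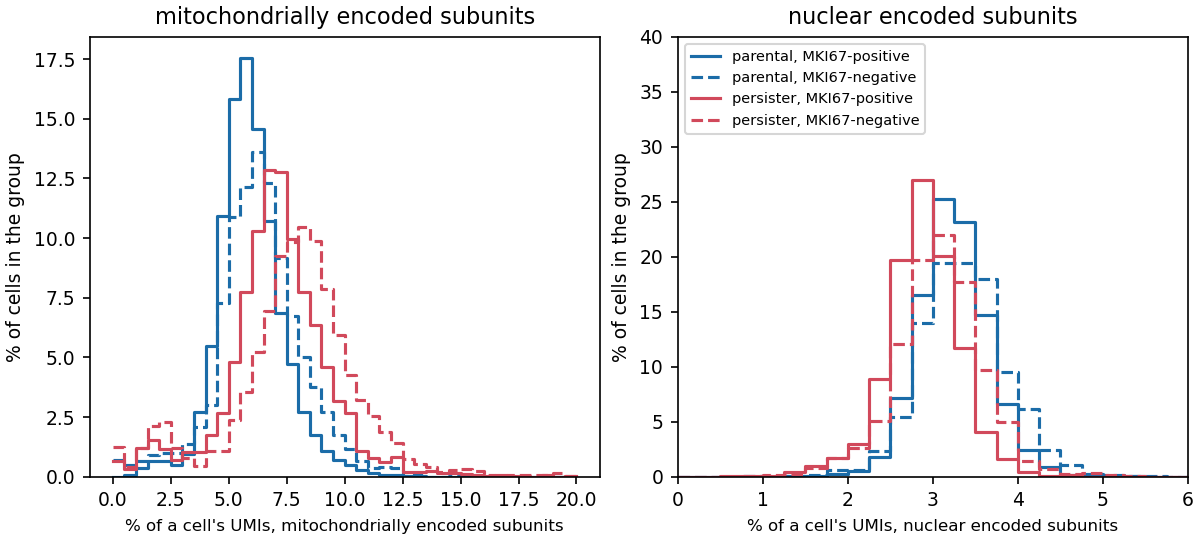
Distribution over cells of the share of a cell's UMIs from mitochondrial (left) and nuclear subunits (right), in % of the cells of each library and MKI67 state. Persister curves lie to the right of the parental ones on the left panel, apart from a small group near 2%, and slightly to the left on the right panel.

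The mitochondrial difference depended on cell depth, and so did the sizes of the MT-ND6 and MT-CO2 differences, while NDUFA13 and ATP5MC1 varied less. In cells of 1000 to under 5000 UMIs (1536 parental and 825 persister) the mitochondrial sum was 62555 and 56486 CPM, a ratio of 0.903, opposite in direction to all cells. It was 1.39 in cells of 5000 to under 10000 UMIs, 1.29 from there to under 20000 and 1.19 at 20000 or more. The nuclear sum had ratios of 0.862, 0.953, 0.898 and 0.814 in the same bands. MT-ND6 stayed lower in all 4 bands (0.448, 0.363, 0.501 and 0.638), as did ATP5MC1 (0.461, 0.448, 0.465 and 0.406), and NDUFA13 stayed higher (2.24, 2.71, 2.67 and 2.56). The parental MT-ND6 level itself fell with depth, at 858, 813, 659 and 450 CPM from the shallowest band to the deepest. In the persister library MT-ND6 was at 384, 295, 330 and 287 CPM. MT-CO2 was above 1 in each but under 1.5-fold in the shallowest and the deepest cells (1.18, 1.95, 1.67 and 1.44). Barcodes with T cell markers had 98695 CPM of mitochondrial and 26757 CPM of nuclear subunits, and without them the mitochondrial ratio was 1.26.

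**Figure D5:**
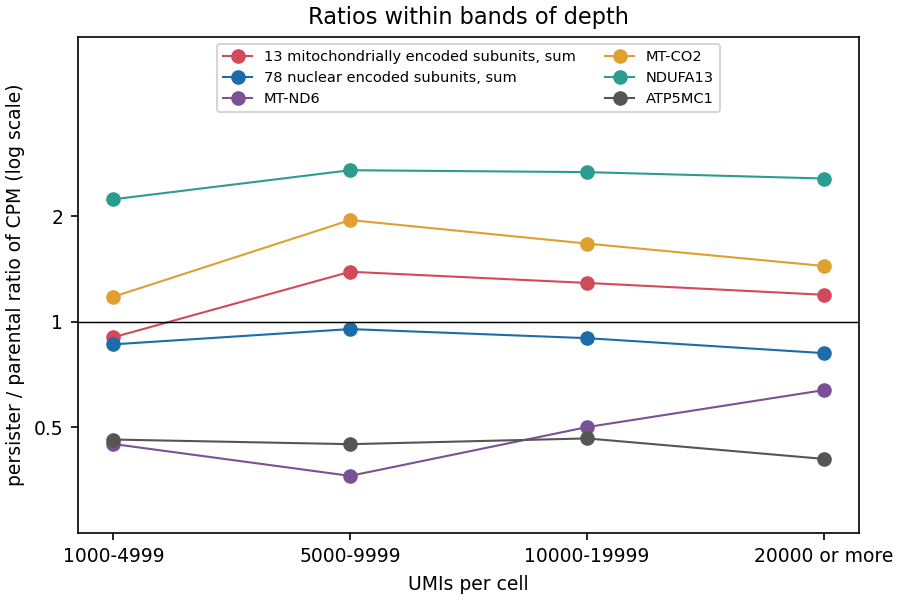
Persister to parental ratio of CPM (log scale) within bands of UMIs per cell, for the summed mitochondrial and nuclear subunits and 4 genes. The mitochondrial sum lies below 1 in the shallowest band and above 1 in the others, while NDUFA13 lies above 2 and ATP5MC1 below 0.5 throughout.

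Other genes of mitochondrial energy metabolism were lower more often than higher, from lists that do not overlap with the members. The same backgrounds apply, 17.5% of measured genes 1.5-fold higher and 25.3% lower. Cytochrome c, CYCS, which carries electrons from complex III to complex IV, was at 415 and 248 CPM (0.597), past 1.5-fold. CYC1, the cytochrome c1 of complex III, has a symbol outside the chosen ones and so is not in the complex III sum, and it was at 243 and 180.0 CPM (0.739). Of 77 measured genes of the mitochondrial ribosome, which translates the 13 mitochondrial messages, 0 were higher and 22 lower, with summed CPM at a ratio of 0.749. The list was taken by the starts MRPL and MRPS, and the divergent transcript MRPS30-DT, also measured, was left out after this was seen. MRPL4 at 201 and 87.9 CPM and MRPL34 at 143 and 65.7 CPM had the largest differences. For the ribosome this is 28.6% lower, close to the background, with none higher.

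Among genes that make or keep mitochondrial RNA, none was 1.5-fold higher in the persister library. Of 11 genes of mitochondrial RNA processing and stability 6 were lower and 0 higher (ratio of sums 0.738), among them LRPPRC, which stabilises mitochondrial messages, at 148 and 89.5 CPM (0.603) and ELAC2, which cuts tRNA 3′ ends from the precursors, at 38.6 and 15.8 CPM (0.411). Of 9 genes of mitochondrial DNA upkeep and transcription 2 were lower and 0 higher (0.843), with the mitochondrial RNA polymerase POLRMT at 14.8 and 8.63 CPM (0.583) and MTERF1 at 12.4 and 6.47 CPM (0.521). Of 6 measured regulators of biogenesis 4 were lower and 0 higher (0.643), with the coactivators PPARGC1B at 7.69 and 2.46 CPM (0.32) and PPRC1 at 32.2 and 19.2 CPM (0.594).

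The TCA cycle, which feeds complexes I and II, had 5 of 13 genes lower and 0 higher (ratio of sums 0.699), with fumarase, FH, at 100.3 and 56.8 CPM (0.566). Pyruvate entry had 4 of 8 lower and 0 higher (0.764), with DLAT, of the pyruvate dehydrogenase complex, at 23.4 and 10.5 CPM (0.45) and its kinase PDK3 at 6.66 and 1.87 CPM (0.28). Protein import had 3 of 8 lower and 0 higher (0.646), with the outer membrane channel TOMM40 at 213 and 73.6 CPM (0.345) and the receptor TOMM22 at 232 and 92.5 CPM (0.399). Among 6 proteases and their kin, LONP1, the matrix protease, was higher at 43.5 and 73.9 CPM (1.7) and SPG7, of the inner membrane, lower at 47.4 and 24.1 CPM (0.509).

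Assembly factors outside the chosen symbols gave a mixed picture. For complex I 3 of 7 were lower and 0 higher (0.921), with FOXRED1 at 23.3 and 10.4 CPM (0.448) and ECSIT at 50.9 and 23.9 CPM (0.469). For complex III 3 of 6 were lower and 0 higher (0.896), with BCS1L, which inserts the Rieske protein, at 18.1 and 10.0 CPM (0.554) and LYRM7, its chaperone, at 37.7 and 23.6 CPM (0.625), beside the lower UQCRFS1 given above. For complex IV 2 of 17 were lower and 1 higher (0.991), COX19, a copper handling factor, at 40.1 and 138 CPM (3.45) and COA7 at 35.4 and 18.4 CPM (0.522). For complex V 1 of 3 was lower and 0 higher (0.739), TMEM70, which helps build the c ring, at 48.3 and 30.6 CPM (0.633), with ATPAF1 at 39.8 and 30.7 CPM (0.772).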

How the data were processed

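The 2 libraries of A375 cells were compared, 1 per group (parental, CTL-tolerant persister), made with the 10x 3′ v3 kit per the labels' protocols. The deposited values are UMI counts, raw whole numbers for each barcode and gene, per the file headers. Cell Ranger 3.1.0 and GRCh38 are named in the submitters' processing notes, and the annotation release and strand setting are not given in the sources used here. The deposited libraries hold 88214007 UMIs in 10751 barcodes and 80802724 UMIs in 7144 barcodes.

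Barcodes were kept from 500 genes and 1000 UMIs upwards if no more than 20% of their UMIs came from mitochondrial genes, without a doublet caller. Counts were summed per library, or per library and MKI67 state, and divided by that sum's UMIs to give CPM. Genes at 5 CPM in a library count as measured. Ratios are of CPM with no pseudocount. With 1 library per group no test across genes was run, so neither edgeR's nor DESeq2's test could be fitted, and calls rest on size (1.5-fold, with 2-fold beside it). Intervals are 95% exact binomial or Poisson intervals, and PCR and cell sampling are not covered. The floor for a count of 0 is 3 UMIs. edgeR 4.0.16 (R 4.3.3) was used for TMM factors only. Other steps ran in Python 3.11.15 with numpy 2.4.6, scipy 1.17.1 and pandas 2.3.3, and were tested on simulated counts. Promoters are from RefSeq (GRCh38.p14) and gene positions from GENCODE 29, matched by gene ID for all 117 symbols.

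Genes are named by a rule: the 13 mitochondrial subunits, the most abundant and the most different nuclear subunit of each complex, members past 1.5-fold at 20 CPM, paired isoforms, NDUFA4L2, assembly factors, ATP5IF1, and 2 genes of each further list, of which 1 is not reported here. Other members named beside them (COX8A, COX6C, UQCRC1, NDUFA2, NDUFV1, NDUFS1, SDHA, SDHC, ATP5MC2, ATP5F1A, ATP5F1B, ATP5F1C, ATP5S) were added after their values were seen. The members and lists were chosen with earlier results of these data known. Alternatives were another scaling, cell filter, thinning, state marker and expression minimum.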

Additional observations from a re-analysis of the deposited data

Results flagged for a closer look

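For 3 genes the MKI67-positive to MKI67-negative ratio lay on different sides of 1 in the 2 libraries, each with a counting interval clear of 1. Cells are not replicates, and the difference between libraries was not tested. MT-ND6 had a ratio of 1.47 (1.43 to 1.51) in the persister library and 0.919 (0.901 to 0.938) in the parental library, although the parental value was 0.9996 in cells thinned to 5000 UMIs, without the shallower ones. ATP5MC1 had 0.926 (0.900 to 0.953) in the persister and 1.03 (1.004 to 1.06) in the parental library. NDUFB6, a membrane arm subunit of complex I, had 1.04 (1.003 to 1.08) in the persister and 0.928 (0.888 to 0.970) in the parental library.

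Barcodes left out for more than 20% mitochondrially encoded UMIs, which enter no comparison, were 0.661% of persister barcodes that passed the other filters (45 of 6812, exact interval 0.482 to 0.883) and 0.0376% of parental ones (4 of 10634). They had medians of 2345 and 1829 UMIs, and their nuclear subunits summed to 13172 and 13818 CPM. Of the 45 persister barcodes, 5 held UMIs of at least 3 T cell markers.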

How the results depend on the processing

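The persister to parental ratio of the mitochondrial sum (1.27) was 1.36 with TMM scaling, 1.29 per UMI of nuclear genes, 1.273 with no mitochondrial cap, 1.21 with a cap of 10%, 1.269 with a stricter filter (1500 genes and 3000 UMIs), 1.26 without T cell marker barcodes, 1.24 as a mean over cells and 1.30 after thinning to 5000 UMIs, which leaves out shallower cells. Chosen after seeing the data, MKI67-positive cells gave 1.21, negative cells 1.26, the sum without MT-CO2 1.17, and cells of 5000 to under 10000, 10000 to under 20000 and at least 20000 UMIs gave 1.39, 1.29 and 1.19. Cells of 1000 to under 5000 UMIs gave 0.903, opposite in direction; the cause was not tested. The nuclear ratio (0.916) was 0.982 with TMM, 0.932 per nuclear UMI, 0.912 with a cap of 10%, 0.928 after thinning, 0.862, 0.953, 0.898 and 0.814 in the depth bands, and 0.890 and 0.925 in MKI67-positive and negative cells.

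The MKI67-positive to negative ratio of the mitochondrial sum was, in the parental library, 0.946 with states called after thinning, 0.926 with 2 MKI67 UMIs as the minimum, 0.931 with TOP2A as the marker and 0.919 per nuclear UMI. In the persister library it was 0.892, 0.874, 0.892 and 0.877 in the same order, 0.878 with no cap and 0.884 without T cell marker barcodes. For the nuclear sum the values were 0.961, 0.983, 0.982 and 0.966 in the parental and 0.932, 0.928, 0.951 and 0.925 in the persister library.

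Across these alternatives and other expression minimums, 6 to 12 members were 1.5-fold higher and 11 to 17 lower. With TMM the count was 11 and 11, so 50% of called members were higher, against 49.6% of called genes among all measured genes. With CPM these shares were 40% and 40.9%. Of the 20 called members, 10 were past 1.5-fold in all 14 settings, and none reversed; NDUFA5 was past it in 8. Leaving out a replicate was not possible with 1 library per group. No paired analysis was possible because each group has 1 library. Depth limits NDUFA4L2 most, with 156 parental UMIs.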
